A study of Mus musculus with 5 samples.

Results

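The genes of the proteasome, its regulators and its dedicated assembly factors were followed in gastrocnemius muscle, a mainly fast calf muscle, of mice injected with extracellular vesicles. Members were all protein-coding genes whose symbol is Psma, Psmb, Psmc, Psmd, Psme, Psmf or Psmg followed by a number and nothing more, which gave 48 of the 35275 genes in the table. They fell into 14 core genes, 17 cap genes, 5 immune genes (Psmb8, Psmb9, Psmb10, Psme1 and Psme2), 7 assembly genes and 5 others. The looser reading, which lets a symbol go on after the number, would have added 6 entries, among them Psmc3ip, 4 pseudogenes listed at 0 and Psme2b, an intronless copy of Psme2.

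The proteasome degrades proteins marked with ubiquitin. Its barrel-shaped core holds rings of alpha subunits, which gate entry, and rings of beta subunits, of which Psmb5, Psmb6 and Psmb7 carry the proteolytic sites. A cap of ATPases and partner subunits receives, unfolds and feeds in the substrate. In immune cells and under interferon the catalytic forms Psmb8, Psmb9 and Psmb10 are built into new cores in place of Psmb5, Psmb6 and Psmb7, and the activator made of Psme1 and Psme2 opens the core, a combination known for producing peptides for antigen presentation. In muscle the proteasome is known for its part in the loss of contractile protein during wasting.

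All 5 samples belonged to 1 group. They came from female NSG mice, labelled wild type, at 12 weeks of age, which had received extracellular vesicles from MCF-10A/miR122 cells by tail vein, about 10 µg each time, 2 times a week for 5 weeks and 10 times in all. The muscle was collected 2 days after the tenth dose. MCF-10A is a non-tumorigenic human breast epithelial line, and NSG mice carry the scid mutation and lack the common gamma chain of cytokine receptors, so they have no mature T, B or NK cells. The labels number the samples 1 to 5 and do not state outright that each is a separate animal, so every spread below is the spread between these 5 libraries. No untreated muscle was analysed here, and the values describe treated muscle only.

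Levels are given in FPKM, the reads of a gene scaled to its length in kilobases and to the library total. The library totals were 16674504 to 25407988 reads. The summed level of 6 fast and general skeletal muscle markers, Acta1 and Ckm among them, was 63344 to 84273 FPKM. Library 3 was the least like the others over the 10710 genes whose mean reached 1 FPKM, with Pearson's r across genes of 0.961 to 0.970 to the other libraries, against 0.981 to 0.988 among those. The genes in it share the same libraries and are no replicates. All 13 macrophage markers at that level were highest in library 3, against 37.4% of the 10710 genes. Library 3 held a summed 425 FPKM of the 14 markers of the list, against 105 to 139.5 FPKM in the others.

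The catalytic genes carry most of what follows, and the promoters of 4 of them, the constitutive and immune forms of the chymotrypsin-like and caspase-like positions, are shown with their sequence. Of the 48 members, 40 had a promoter window in RefSeq (GRCm38.p6, the build that mm10 also names), and the 250 bases before the start site were searched on both strands. The 3 response elements, which do not overlap each other or the CCAAT box in the windows shown, were the core of the antioxidant response element (TGACNNNGC), bound by factors such as Nfe2l1 and Nfe2l2, the interferon-stimulated response element (searched by its consensus, with a pair of free bases between its repeats) and the gamma-activated site (TTCNNNGAA). The fourth motif was the CCAAT box (CCAAT). Capitals mark every match. Psmb5 (chr14:54617996-54618245, minus strand) and Psmb6 (chr11:70525107-70525356, plus strand) are constitutive forms, and Psmb8 (chr17:34197945-34198194, plus strand) and Psmb9 (chr17:34187331-34187580, minus strand) are the immune forms that take their positions.
Psmb5: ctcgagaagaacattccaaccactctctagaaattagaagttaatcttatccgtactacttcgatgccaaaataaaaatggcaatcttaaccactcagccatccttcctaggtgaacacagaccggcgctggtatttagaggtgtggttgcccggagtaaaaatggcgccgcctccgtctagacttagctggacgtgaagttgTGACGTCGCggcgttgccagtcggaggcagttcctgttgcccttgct
Psmb8: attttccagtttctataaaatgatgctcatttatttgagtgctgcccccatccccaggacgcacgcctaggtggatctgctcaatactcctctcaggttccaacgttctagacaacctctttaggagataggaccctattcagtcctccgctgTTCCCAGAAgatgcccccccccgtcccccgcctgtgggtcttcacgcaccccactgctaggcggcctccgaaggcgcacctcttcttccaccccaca
Psmb6: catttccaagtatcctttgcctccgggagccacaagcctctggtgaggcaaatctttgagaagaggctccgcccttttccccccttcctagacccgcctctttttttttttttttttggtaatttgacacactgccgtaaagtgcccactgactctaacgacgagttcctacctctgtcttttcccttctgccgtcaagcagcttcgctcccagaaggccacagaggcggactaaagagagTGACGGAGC
Psmb9: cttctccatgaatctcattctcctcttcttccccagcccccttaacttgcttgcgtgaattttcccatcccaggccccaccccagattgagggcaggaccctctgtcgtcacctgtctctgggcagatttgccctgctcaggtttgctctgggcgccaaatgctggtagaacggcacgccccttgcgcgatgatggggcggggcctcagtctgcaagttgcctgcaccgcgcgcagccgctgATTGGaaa

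The antioxidant core stood 47 bases before the start site in Psmb5 and 9 bases before it in Psmb6, the gamma-activated site 97 bases before it in Psmb8 and the CCAAT box, read on the other strand, 8 bases before it in Psmb9. These distances count from the RefSeq start site. In 38 of the 43 windows of members that site lay in the start of a GENCODE transcript, but not in the window of Psmb8. The Psmb8 window begins inside the GENCODE gene, which starts at 34197721. Over all members with a window, the antioxidant core was found in 5 of 40, and it was found in 11.5% of 27025 genes with a window. The interferon element was found in 3 members, Psmb3, Psmd4 and Psmd9, and in 3.46% of genes, and it was found in none of the 5 immune members. The gamma-activated site was found in 2 members and 8.13% of genes, and the CCAAT box in 14 members and 37.5% of genes. A match describes letters in this window and no binding.

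The constitutive core and its cap were well expressed, and the medians of the assembly and immune genes lay far below theirs, although Psme2 reached the level of the lowest core and cap genes. The median over members of the mean level was 58.5 FPKM for the 14 core genes and 50.3 FPKM for the 17 cap genes, against 12.2 FPKM for the 5 immune genes and 7.69 FPKM for the 6 assembly genes at 1 FPKM or more (6.31 FPKM over all 7 assembly genes). Within a class the means spread 6.13-fold in the core, 4.0-fold in the cap and 28.2-fold among the immune genes. With reads divided by principal transcript length these spreads were 10.99-fold, 4.55-fold and 13.6-fold, so the order of genes within a class depends in part on the length used. Members at 1 FPKM or more numbered 45, and in their order by mean level all 44 neighbouring pairs had ranges that overlapped between libraries. The 48 members together took 0.501% ± 0.0562 of the summed FPKM of a library (SD, n = 5).

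**Figure D1:**
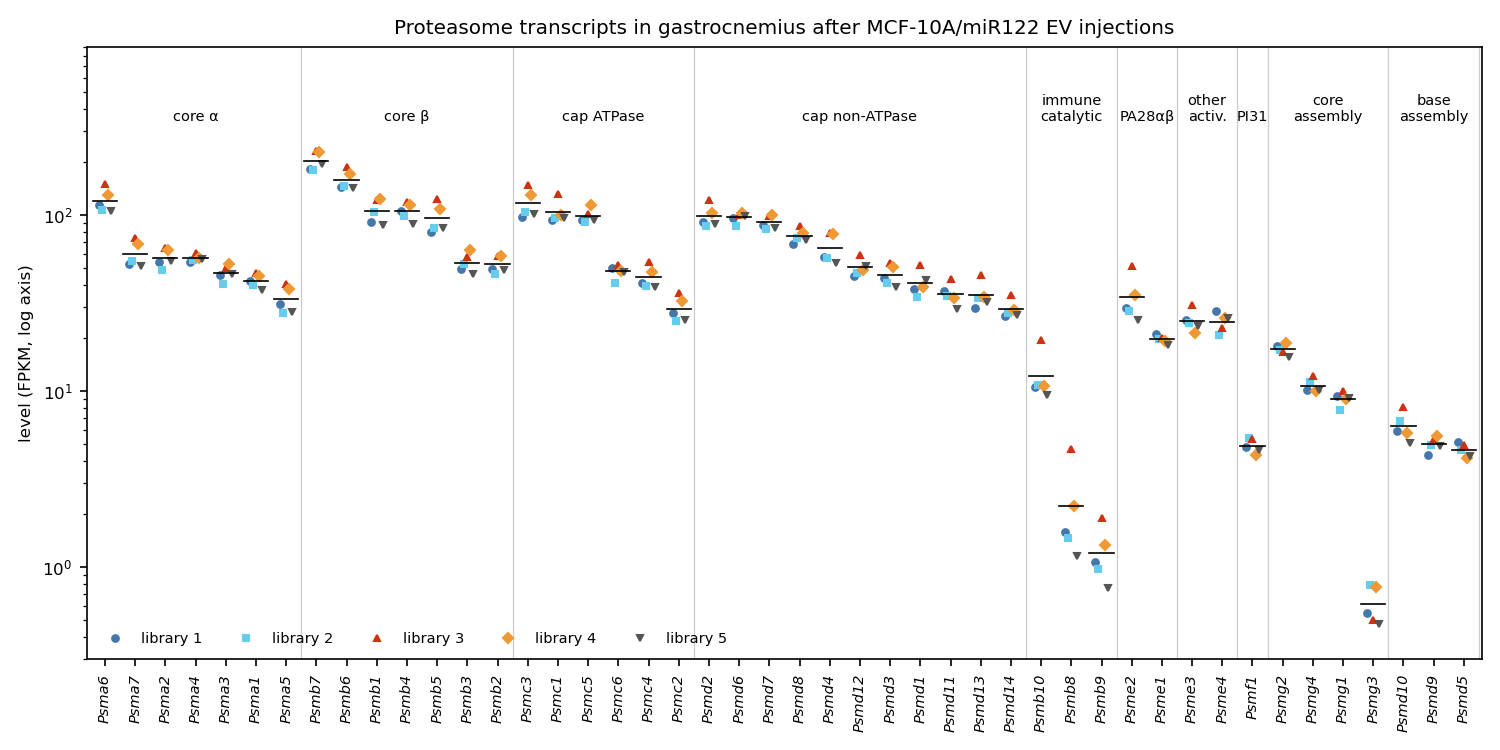
Level of each proteasome gene in the 5 libraries (FPKM, log axis), grouped by role, with a black bar at the mean; Psma8 and Psmb11, at or near 0, are left out. Core and cap genes lie between 29.1 and 203 FPKM on average, immune catalytic and assembly genes lie lower, and library 3 (red triangles) stands clear of the others for Psmb8, Psmb10 and Psme2.

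Among the core genes, the beta ring held the most abundant transcripts. Psmb7, which provides the trypsin-like site, was first at 183, 179, 230.4, 227 and 196 FPKM in libraries 1 to 5. Psmb6, which provides the caspase-like site, was at 145, 147, 187, 171 and 143 FPKM. In both genes libraries 3 and 4 were above the other 3. Psmb5, the chymotrypsin-like form, was lower, at 79.6, 83.9, 123, 108 and 83.8 FPKM, with the same 2 libraries on top. The structural beta genes Psmb1 and Psmb4 both averaged 105 FPKM, and Psmb3 and Psmb2 were the lowest of the ring at 53.6 ± 6.68 and 52.4 ± 5.82 FPKM (SD, n = 5). At principal transcript length Psmb3 averaged 106 FPKM and Psmb1 62.0 FPKM, so only Psmb2 kept its place as the lowest of the ring.

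The alpha ring, which gates the core, was led by Psma6 at 114, 106, 149, 129 and 106 FPKM. The next 5 genes lay between 42.2 and 60.0 FPKM on average. Psma5 was the lowest core gene, at 31.3, 27.8, 40.8, 37.7 and 28.2 FPKM, and the next lowest was Psma1, at 42.1, 40.3, 46.9, 44.7 and 37.3 FPKM. At principal transcript length Psma2 was the lowest, at 18.5 FPKM on average, against 57.0 FPKM as deposited. Psma4 varied least between libraries of all members, at 53.9, 55.5, 60.5, 57.0 and 56.6 FPKM, a coefficient of variation of 4.33%. Its libraries were not told apart beyond counting error (adjusted p = 0.0611, chi-square test over all genes with Benjamini-Hochberg adjustment), but it passed under median-of-ratios scaling and without library 2, 4 or 5.

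In the cap, the ATPase genes Psmc3 and Psmc1, whose products belong to the ring that unfolds substrate, were the most abundant. Psmc3 was at 97.9, 105, 149, 129 and 101 FPKM, and Psmc1 at 93.4, 96.0, 132, 101 and 95.5 FPKM. At the deposited scale Psmc1 was set apart in library 3 alone, while Psmc3 was raised in libraries 3 and 4. Under median-of-ratios scaling Psmc1 was at 123 FPKM in library 3 and 112 FPKM in library 4. Psmc5, the third, was highest in library 4, at 93.4, 91.3, 102, 114 and 93.6 FPKM. Psmc2 was the lowest ATPase at 27.7, 24.9, 36.0, 32.3 and 25.4 FPKM. With principal transcript lengths Psmc3 stayed first in the cap, at 129 FPKM on average. Psmc5, Psmd4 and Psmd2 followed at 105, 103.6 and 99.7 FPKM, above Psmc1 at 98.7 FPKM.

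The non-ATPase cap genes ran between 29.1 and 98.4 FPKM on average. Psmd2, the scaffold of the base, had the highest mean, 98.4 ± 14.5 FPKM, and Psmd6, a lid subunit, the next, 96.8 ± 5.99 FPKM (SD, n = 5). Psmd4, a receptor for ubiquitin chains, was at 65.1 ± 12.3 FPKM as deposited, but at principal transcript length it was the highest of them, at 103.6 FPKM against 99.7 FPKM for Psmd2. Psmd14, the enzyme that cuts ubiquitin off the substrate, was the lowest cap gene as deposited, at 26.6, 27.8, 35.0, 29.0 and 26.9 FPKM. With principal transcript lengths Psmc2 was lower, at 28.4 FPKM on average against 29.1 FPKM for Psmd14. At the deposited scale the level of Psmd14 in library 3 lay above all others, and the other 4 libraries lay close together. Under median-of-ratios scaling libraries 3 and 4 were nearly level, at 32.8 and 32.4 FPKM.

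The immune catalytic genes were a small part of the catalytic transcripts in every library. Psmb10, which takes the place of Psmb7, was the most abundant at 10.5, 10.8, 19.5, 10.7 and 9.48 FPKM in libraries 1 to 5 (chromosome 8, 105935735 to 105938444). Psmb8, which takes the place of Psmb5, was at 1.58, 1.47, 4.69, 2.22 and 1.16 FPKM (chromosome 17, 34197721 to 34201454). Psmb9, which takes the place of Psmb6, was at 1.07, 0.973, 1.89, 1.34 and 0.764 FPKM (chromosome 17, 34181987 to 34187764). All 3 were highest in library 3 and lowest in library 5. They rested on 1603, 427 and 362 reads over the 5 libraries, and their coefficients of variation, 33.6%, 64.4% and 36.0%, were the 3 largest among members at 1 FPKM or more.

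Set against the constitutive form of the same position, the immune form took 5.61% ± 1.32 of the summed FPKM for Psmb10 and Psmb7, 2.14% ± 0.891 for Psmb8 and Psmb5 and 0.741% ± 0.173 for Psmb9 and Psmb6 (SD, n = 5). For Psmb8 the share was 1.94%, 1.72%, 3.67%, 2.02% and 1.36% in libraries 1 to 5. For Psmb10 it was 5.43%, 5.68%, 7.79%, 4.52% and 4.61%, and for Psmb9 0.736%, 0.658%, 1.00%, 0.776% and 0.533%. Each position had its highest share in library 3. Counted in reads over the 3 positions, the immune forms took 6.58% in library 3 (95% Wilson interval 6.11% to 7.09%) and 3.62% (3.29% to 3.97%) to 4.41% (4.03% to 4.83%) in the other libraries. These intervals cover counting error only.

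Within a library the immune form lay below the constitutive one in 5 of 5 libraries at every position. On the log2(FPKM + 1) scale the mean ratio was -4.98 ± 0.32 for Psmb8 to Psmb5, -6.19 ± 0.12 for Psmb9 to Psmb6 and -3.99 ± 0.31 for Psmb10 to Psmb7 (SD, n = 5). Each gave p = 0.0625 in the exact two-sided sign-flip permutation test and 0.0694 after Benjamini-Hochberg adjustment over the 10 pairs of members tested. That is the smallest p that 5 libraries allow, so no pair could pass 0.05. The levels of Psmb8 and Psmb9 are near the added 1, which draws in their ratios and spreads. With 0.1 added in its place the mean ratios were -5.52 ± 0.51 for Psmb8, -6.97 ± 0.30 for Psmb9 and -4.09 ± 0.33 for Psmb10 (SD, n = 5).

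**Figure D2:**
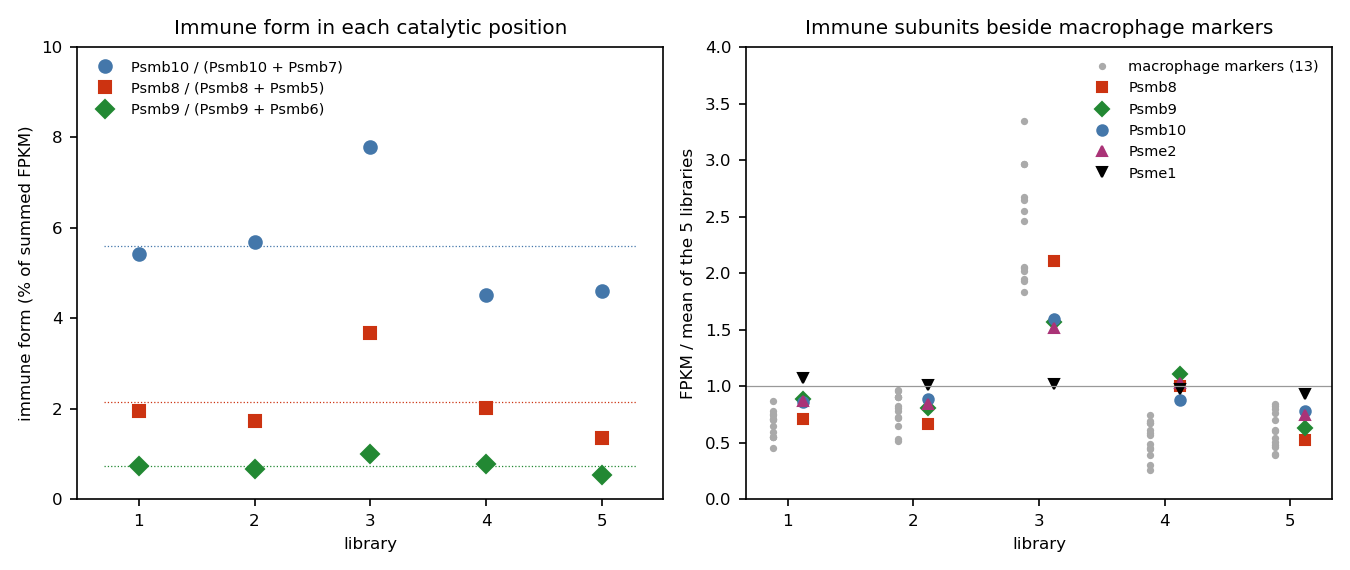
Left, share of the immune form in the summed FPKM of each catalytic position, by library, with dotted lines at the mean of the 5 libraries. Right, level of each immune member and of the 13 macrophage markers at 1 FPKM or more, divided by its own mean over the 5 libraries. Psmb8 reaches 3.67% of its position in library 3, and Psmb8, Psmb9, Psmb10, Psme2 and the macrophage markers are all above their means there, whereas Psme1 is close to its mean in all 5 libraries.

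The partners of the immune activator did not vary alike. Psme2 was at 29.6, 28.5, 51.6, 35.0 and 25.4 FPKM in libraries 1 to 5, with library 3 well above the rest (chromosome 14, 55587441 to 55591113). Psme1 was at 21.0, 19.8, 20.1, 19.1 and 18.4 FPKM, with library 1 highest and a coefficient of variation of 5.10%, against 30.6% for Psme2 (chromosome 14, 55578123 to 55581529). For Psme1 the libraries were not told apart beyond counting error (adjusted p = 0.0521), whereas Psme2 passed that chi-square test (adjusted p = 3.6e-48). Psme1 lay at the threshold, and it passed under median-of-ratios scaling, at a minimum mean of 5 FPKM and without library 2, 3 or 4. The ratio of Psme1 to Psme2 was -1.32 in library 3 and -0.84 to -0.45 in the others on the log2(FPKM + 1) scale. Psme2b, which shares sequence with Psme2, was listed at 0.834 to 2.22 FPKM. The sources used here do not say how reads matching both were assigned.

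Which of Psme1 and Psme2 was the more abundant depended on gene length. The mean log2 ratio of Psme1 to Psme2 was -0.72 ± 0.37 at the deposited scale (SD, n = 5), and 0.09 when reads were divided by the length of the principal transcript of each gene. The length inferred behind the deposited values was 1986 bases for Psme1, 1.79 times its principal transcript. For Psme2 it was 962 bases, the same as its principal transcript. The length of a gene is the same in all libraries, so it does not enter the difference between library 3 and the others.

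Of the 5 immune members, 4 were highest in library 3, the exception being Psme1, and markers of other cells and interferon-linked genes were high there too. In bulk muscle, fewer cells of a type and less RNA per cell cannot be told apart. Among macrophage markers in libraries 1 to 5, Lyz2 (lysozyme) was at 35.4, 46.8, 172, 37.6 and 29.7 FPKM. Cd68 (a lysosomal protein) was at 4.79, 5.40, 35.3, 3.21 and 4.16 FPKM, and Ptprc (CD45) at 0.387, 0.406, 2.09, 0.275 and 0.266 FPKM. The 5 genes of the dendritic and antigen-presenting list summed to 97.2 FPKM in library 3, against 15.5 to 20.9 FPKM in the others, with Cd74 the most abundant. Their part in the immune subunits' levels was not tested. T cell, B cell and NK cell markers were at or near 0, none of their 13 genes exceeding 0.579 FPKM in any library, and Ncr1 was listed at 0 in all of them. Of the other marker lists, 3 of 3 erythroid, 3 of 5 fibroblast and 0 of 5 endothelial genes were highest in library 3. For all genes tested that share was 37.4%. For slow muscle 3 of 3 genes were highest in library 2, against 23.2% of all genes tested.

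Of 17 genes of interferon response and antigen presentation at 1 FPKM or more, 13 were highest in library 3, against 37.4% of all genes tested. B2m, the light chain of MHC class I, was at 70.4, 69.0, 128, 80.3 and 68.6 FPKM, and Tap1, which carries proteasome products into the endoplasmic reticulum, at 0.881, 0.883, 1.89, 0.762 and 0.785 FPKM. Irf1, a factor known to switch these genes on, had another order and was at 4.41, 4.14, 3.84, 3.97 and 3.06 FPKM, highest in library 1. Nlrc5, an activator of MHC class I genes, was at or below 0.176 FPKM. Tap1 and Psmb9 start from adjoining sites and share 212 exon bases, and the sources used here name no strand setting for the counting, so reads from those bases cannot be told apart. Other catalytic genes share exon bases too. Psmb8 shares 498 with the antisense gene Gm20496, Psmb7 shares 405 with Nek6 and Psmb5 shares 109 with Mir686. These shared bases are those of all annotated exons. The lengths inferred behind the deposited values of Psmb5, Psmb7, Psmb8 and Psmb9 were shorter, so whether the shared bases were counted is not known.

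Of the other activators, Psme3, whose product forms a nuclear activator of the core, was at 25.2, 24.4, 30.7, 21.3 and 23.5 FPKM, highest in library 3. Psme4, the large single-chain activator known as PA200, was at 28.5, 20.8, 22.7, 26.0 and 26.0 FPKM, highest in library 1 and lowest in library 2. Psme3 exceeded Psme4 in 2 of 5 libraries (mean log2 ratio 0.01 ± 0.29, p = 0.938, exact sign-flip permutation test). Psmf1, which encodes the proteasome inhibitor PI31, was at 4.80, 5.38, 5.32, 4.31 and 4.61 FPKM and below Psme1 in 5 of 5 libraries, by a mean log2 ratio of -1.82 ± 0.10. Psmb11, the catalytic form of thymic epithelium, was listed at 0 in every library, as were the thymic markers Foxn1 and Krt5. Psma8, the alpha form of male germ cells, had 3 reads in all and at most 0.0354 FPKM.

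**Figure D3:**
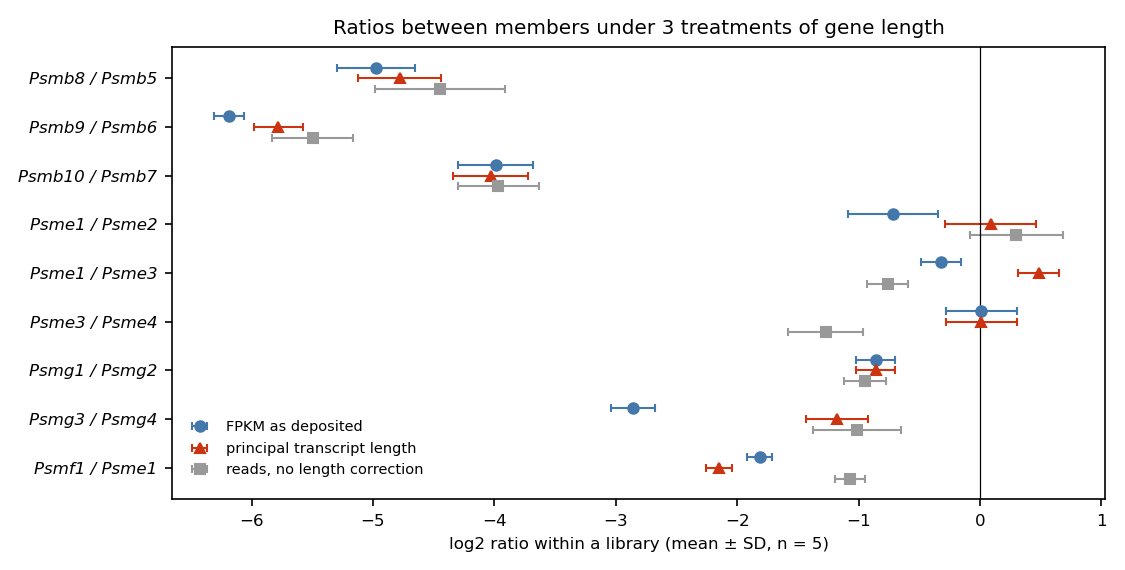
Mean log2 ratio within a library (± SD, n = 5) for 9 pairs of members, from the deposited FPKM, from reads divided by the principal transcript length and from reads without length correction, each after adding 1. The 3 immune to constitutive pairs lie at -3.97 or lower under each treatment, whereas Psme1 to Psme2 is -0.72, 0.09 and 0.30.

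Genes that help to build the particle were low, and their coefficients of variation ran between 6.77% for Psmg2 and 24.5% for Psmg3. Psmg1 and Psmg2, which pair to assist the alpha ring, averaged 9.07 ± 0.836 and 17.2 ± 1.17 FPKM (SD, n = 5), and Psmg1 was below Psmg2 in 5 of 5 libraries (mean log2 ratio -0.86 ± 0.16). The other pair, Psmg3 and Psmg4, were at 0.615 ± 0.151 and 10.7 ± 0.953 FPKM. The gap of -2.86 on the log2(FPKM + 1) scale between that pair shrank to -1.18 with principal transcript lengths. The lengths inferred behind the deposited values were 2401 bases for Psmg3 and 277 bases for Psmg4, 2.97 and 0.499 times the principal transcripts. For Psmg4 this was the shortest length that made all 5 values whole. A multiple of it could do so too, and then Psmg4 would have more reads and the gap would shrink less. The base chaperones Psmd5, Psmd9 and Psmd10 averaged 4.62, 5.01 and 6.31 FPKM. Of the 6 assembly genes at 1 FPKM or more, 2 (Psmd9 and Psmd10) varied beyond counting error in the chi-square test, against 87.9% of all genes tested. The other 4, Psmg1, Psmg2, Psmg4 and Psmd5, had 315 to 1960 reads over the 5 libraries. The count was 4 under median-of-ratios scaling, which added Psmg1 and Psmg2, and Psmd9 no longer passed without library 1 or library 4, nor Psmd10 without library 3.

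Pomp, which completes the core and is not among the members by symbol, stood far above these assembly genes, at 86.8, 88.1, 89.0, 92.2 and 82.0 FPKM. Of the 28 partner genes of the ubiquitin and proteasome system at 1 FPKM or more, Pomp among them, 24 varied beyond counting error (background 87.9%), 12 were highest in library 3 (37.4%) and 5 in library 4 (10.5%). The counts of 24 and 12 are near the background. Ubb, a ubiquitin precursor, was the most abundant of them, at 272, 267, 403, 398 and 256 FPKM. It was highest in libraries 3 and 4, and so was the ubiquitin fusion gene Rps27a, at 138, 143, 194, 162 and 143 FPKM. Nfe2l1, known to restore proteasome genes when the particle is inhibited, had another order, at 149, 218, 211, 135 and 147 FPKM with libraries 2 and 3 highest. Nfe2l2, its relative, was at 15.2 ± 1.76 FPKM (SD, n = 5).

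The core genes were higher in libraries 3 and 4 than in libraries 1, 2 and 5, every one of them at the deposited scale. These 2 libraries were the 2 highest for 14 of 14 core genes, 13 of 17 cap genes, 3 of 5 immune genes, 1 of 6 assembly genes and 0 of 3 others at 1 FPKM or more, against 9.52% of all genes tested. With the libraries rescaled by median of ratios the counts were 12 of 14, 12 of 17, 4 of 5, 2 of 6 and 0 of 3, against 14.2%. The pair of libraries was chosen after the values were seen, so the counts are a description. The genes share their libraries and are not independent of each other.

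Library 3 was the highest for 33 of 45 members, against 37.4% of all genes tested, and library 4 for 8 of 45, against 10.5%. Library 1 was highest for 3 (background 21.2%), library 2 for 1 (23.2%) and library 5 for 0 (7.68%). In library 3 were the highest values of 11 core, 14 cap, 4 immune, 3 assembly genes and Psme3. The lowest value was in library 5 for 18 members (background 24.9%), library 2 for 14 (9.8%), library 1 for 9 (10.2%), library 4 for 4 (38%) and library 3 for 0 (17.1%). The order of libraries 3 and 4 turned on the scaling. Median-of-ratios scaling moved the median of all genes by 0.13 in library 4 and by -0.08 in library 3 on the log2 scale. Under it library 4 was highest for 30 members (background 27.5%), among them 14 of 14 core genes, and library 3 for 13 (background 27%). Libraries 1 and 2 were each highest for 1 (13.1% and 13.6%) and library 5 for 0 (18.8%). For the immune genes the order did not turn, and 4 of 5 were highest in library 3 under both scalings.

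Relative to the median of all genes in the same library, the median deviation of core genes from their own means was 0.12 in library 3 and 0.26 in library 4 on the log2(FPKM + 1) scale, and -0.10, -0.19 and -0.10 in libraries 1, 2 and 5. For cap genes it was 0.23 and 0.18 in libraries 3 and 4, against -0.18 to -0.04 in the others. The immune genes had 0.57 in library 3 and 0.19 in library 4, and the assembly genes 0.05 and 0.06. Under median-of-ratios scaling these values were 0.11 and 0.29 for core, 0.21 and 0.21 for cap, 0.55 and 0.17 for immune and 0.04 and 0.07 for assembly genes. Markers of tissue make-up also differed between the libraries. Macrophage markers were high in library 3 alone, and 4 of 6 skeletal muscle markers were highest in library 4, against 10.5% of all genes tested. Their part in the result was not tested.

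**Figure D4:**
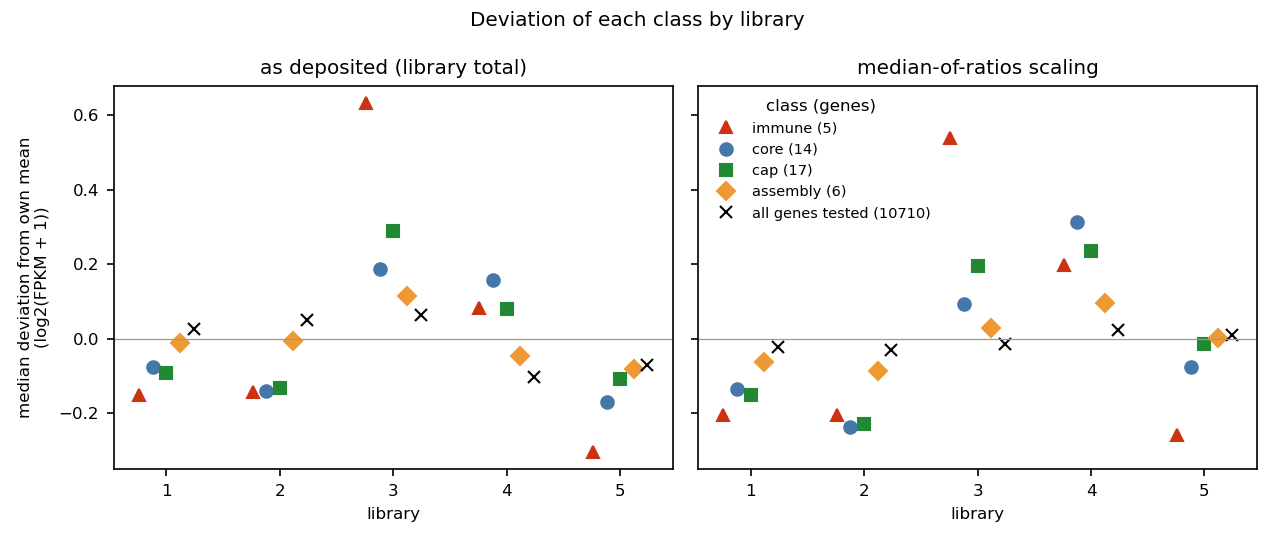
Median over the genes of a class of how far each gene lies from its own 5-library mean (log2(FPKM + 1)), by library, with the values as deposited on the left and after median-of-ratios scaling on the right. Core genes are at 0.19 and 0.16 in libraries 3 and 4 on the left and at 0.09 and 0.31 on the right, while immune genes are highest in library 3 in both.

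Differences of this size were beyond counting error for most members, as for most genes. In a chi-square test of the reads against the library totals, 39 of 45 members passed at an adjusted p of 0.05, against 87.9% of all 10710 genes tested, a share near the background. The 6 that did not pass were Psma4, Psme1, Psmg1, Psmg2, Psmg4 and Psmd5. The median coefficient of variation between libraries was 12.3% for the members, with 2.44% from counting error, and 16.3% for all genes tested, with 5.13% from counting error. No member was called as varying beyond its abundance trend in limma (0 of 45 at an adjusted p of 0.05, against 0% of all genes). With no gene called at all, this does not show that the members kept to the trend. The largest variances were 7.13, 4.47 and 4.38 times the trend, for Psmb8, Psme2 and Psmb10. At an unadjusted p under 0.05 limma gave 1 member, Psmb8, against 5.75% of all genes. Read against the trend, the spread of the members had a median ratio of 0.891, and that of all genes 0.967.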

How the data were processed

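RNA from 5 gastrocnemius samples was made into libraries with poly-T beads, per the labels' protocols. The deposited table gives 1 FPKM value per gene and sample, and mm10, edgeR, DESeq2, HTSeq 0.6.1, STAR 2.5 and TopHat stand in the submitters' processing notes without roles. The table holds no counts, so the count test first intended was replaced. Whole reads were recovered from the FPKM values of the authors' table, with library totals from low genes and the gene length that made all 5 values whole within 0.001, for 20840 of 20840 genes above 0. They made up 99.5% of each total. The fits covered the 10710 genes whose mean reached 1 FPKM. Variance over the abundance trend was tested with limma 3.58.1 on log2(FPKM + 1), and reads against library totals with a chi-square test, both with Benjamini-Hochberg adjustment over all genes at 0.05. For pairs of members the signs of the 5 log2 ratios were flipped in all ways (an exact, two-sided permutation test). Python 3.11.15, scipy 1.17.1 and R 4.3.3 were used, and code was tested on simulated data. Gene annotation was GENCODE M21 (GRCm38). Replicates were the labelled samples. As separate animals are not stated outright, p-values measure the spread between these samples, which may be technical. Members with their values were named by a rule: the catalytic pairs and activators, the 3 highest and 2 lowest core and cap genes, the 3 largest coefficients of variation, and the 3 most abundant genes of each list, with further genes named for their role after values were seen. The members and gene lists were chosen with earlier results of these data known. Alternatives were other scalings, pseudocounts, filters, gene lengths and leaving out each sample.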

Additional observations from a re-analysis of the deposited data

Results flagged for a closer look

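In 4 of the results on 47 members, 10 ratios and 3 shares checked, library 3 stood apart from the other 4 libraries by more than Dixon's 95% critical value for 5 samples. Chance gives such a gap in about 1 of 20 groups, so 4 flags are near the number that chance would give over these checks. The checks share their libraries and are not independent. Psmc1, an ATPase of the cap, was at 131.638 FPKM in library 3, the next highest library was at 100.5 FPKM and the lowest at 93.4 FPKM. Psmd14, the deubiquitinating enzyme of the lid, was at 35.0257 FPKM in library 3, with the next library at 29.0 FPKM. These gaps of Psmc1 and Psmd14 are at the deposited scale. Under median-of-ratios scaling Psmc1 was at 123 and 112 FPKM in libraries 3 and 4, and Psmd14 at 32.8 and 32.4 FPKM. Psmb10, an immune catalytic subunit, was at 19.4554 FPKM, with the next library at 10.8 FPKM and a gap of 0.869 of the whole range. The share of Psmb8 in the sum of Psmb8 and Psmb5 was 3.67055% in library 3, and 2.02% in the next library. Library 3 also held the highest levels of all 13 macrophage markers at 1 FPKM or more (background 37.4%), and their part in these results was not tested.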

How the results depend on the processing

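The values cover 1 group of 5 libraries at a deposited scale whose gene length is not stated, and no untreated muscle was analysed here. Among members at 1 FPKM or more, depth was lowest for Psmg4, Psmb9 and Psmb8, with 315, 362 and 427 reads at the lengths inferred. Of 176 alternative values over 22 results, 156 kept their direction and call (or, without a test, moved by less than the spread between libraries, and counts by less than 1.5 times), 14 moved and 6 reversed. For the ratios between members only the direction could change. The smallest p of their sign-flip permutation test is 0.0625 with 5 libraries and 0.125 with a sample left out. No ratio could therefore be called under any setting, and a kept call says nothing for them. A ratio could also keep its direction at another size, as that of Psmg3 to Psmg4 did, at -1.01 in reads and -2.86 as deposited. No paired analysis was possible because all 5 samples belong to 1 group. With limma, 0 members were called under every setting, and in the main one 0 of all 10710 genes, so these values had little room to change. Of members, library 3 was highest for 13 under median of ratios (33 at the deposited scale), and library 4 for 30 under median of ratios, 2 in TPM and 8 to 32 when each sample was left out, the 32 without library 3. The median level of core genes became 77.4 FPKM and that of cap genes 61.3 FPKM at principal transcript length, and that of immune genes 19.7 FPKM at a minimum mean of 5 FPKM. For assembly genes it became 6.31 FPKM without a minimum and 9.07 FPKM at a minimum of 5. It became 10.7 FPKM with Psmd5, Psmd9 and Psmd10 counted as cap and 5.83 FPKM at principal transcript length. The last value rests in part on the length inferred for Psmg4. The log2 ratio of Psme1 to Psme2 became 0.30 in reads not corrected for length and 0.088 at principal length, that of Psme1 to Psme3 0.48 at principal length, and that of Psme3 to Psme4 -1.27 in reads and -0.090 to 0.083 with a sample left out (-0.04 without library 2, -0.090 without library 3). In reads the immune share was 4.56% for Psmb8 and 2.18% for Psmb9, and at principal length 1.30% for Psmb9. Members passing the chi-square test numbered 37 to 41 with a sample left out, and without library 3 Psmb10, Psmd10 and Psmd14 no longer passed while Psme1 did. Median-of-ratios scaling gave 42, of which 38 were shared, with Psmf1 lost and Psma4, Psme1, Psmg1 and Psmg2 gained.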
